A study of Mus musculus with 24 samples.

Results

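Beta cell identity transcription factors were followed in MIN6 cells, a mouse insulinoma line that makes insulin and is used as a stand-in for the pancreatic β cell. The 9 genes were chosen by name as factors that keep a β cell a β cell: *Pdx1*, *Mafa*, *Nkx6-1*, *Nkx2-2*, *Neurod1*, *Isl1*, *Pax6*, *Foxa2* and *Rfx6*. They and the gene lists used below were chosen with earlier results of these data known. All 9 were found among the 17696 genes of the count table, and each held between 302 and 46031 reads in every library. Bulk RNA-seq had been performed on 24 libraries in 6 groups of 4. The stable lines had been transduced with a lentiviral vector carrying a scrambled sequence (Scr), an inhibitor of miR-146a-5p (ZIP) or miR-146a-5p itself for overexpression (OE), and every line had been selected with puromycin and grown from single clones. Each line was left untreated or exposed for 24 h to a mix of IFNγ at 100 ng/ml, TNFα at 10 ng/ml and IL-1β at 5 ng/ml (Scr+Cy, ZIP+Cy and OE+Cy). A difference between lines therefore cannot be told apart from a difference between clones. The vector backbone also differed between OE and the other lines. Labels number the libraries of a group from 1 to 4. A prefix shared by all groups goes with each number, and its meaning is not given. The labels do not say that the libraries of a group came from separate cultures. The p values thus measure the spread between these libraries, which may be technical. In bulk RNA, fewer cells of a type and less RNA per cell cannot be told apart.

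These factors form a network of DNA-binding proteins that act on one another's genes and on the genes for insulin and for glucose sensing. Foxa2, a forkhead protein that opens chromatin, and Pdx1, a homeodomain protein, act early in pancreas formation and remain in the adult β cell. Nkx6-1 and Nkx2-2 are homeodomain proteins known for holding off the programs of other islet cells, Pax6 and Isl1 serve all islet endocrine cells, and Neurod1 is a basic helix-loop-helix protein that binds E boxes such as that of the insulin promoter. Mafa, a basic leucine zipper protein, marks the mature β cell, and Rfx6 is a winged-helix factor needed for islet development and for insulin secretion. Loss of such factors is known as β cell dedifferentiation, and proinflammatory cytokines are known to lower several of them in islets.

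The OE and ZIP vectors were built to raise or to inhibit the microRNA miR-146a-5p. It pairs with transcripts through its seed, bases 2 to 8, printed here in capitals. By qRT-PCR the paper found its level raised in untreated OE cells and unchanged in untreated ZIP cells, both against Scr. The paper also reported that its level rose with cytokines in every line, most in Scr. Its mature form lies on the minus strand at chr11:43374435-43374456 (GRCm38.p6), and the sequence is from RefSeq.
mmu-miR-146a-5p: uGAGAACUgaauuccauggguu
The longest annotated 3′ untranslated region of each factor (GENCODE release M21, the same build) was searched for the complement of the seed. None of the 9 held a match of 7 or 8 bases, whereas 19.8% of 15453 genes with such a region did. A match to the shorter core GTTCTC was present in 3 of the 9 and, counting longer matches too, in 32.5% of all genes. These were *Mafa* at chr15:75745591-75745596, *Nkx6-1* at chr5:101658546-101658551 and *Foxa2* at chr2:148043212-148043217, each on the minus strand. The GENCODE region of *Nkx6-1* runs past the end of the gene as the count table gives it, and the match lies in that stretch. All 3 matches are printed with their surroundings and the match in capitals.
Mafa: ggtttttgttgtGTTCTCtctctctctctc
Nkx6-1: agcagcctttggGTTCTCctccgaatttgc
Foxa2: atttttgttgttGTTCTCtattgctgttgt
*Pdx1*, *Nkx2-2*, *Neurod1*, *Isl1*, *Pax6* and *Rfx6* held none of these letters in that region. A match of this kind is a description of the sequence and not evidence of binding.

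Several factors moved together between lines, so their promoters (250 bases before to 50 after the start, RefSeq, GRCm38.p6) were searched on both strands for 6 short motifs. *Pdx1*, *Nkx6-1*, *Nkx2-2*, *Neurod1*, *Isl1*, *Pax6*, *Foxa2* and *Rfx6* had 11 annotated promoters in all, and *Mafa* was not matched. Motifs through which cytokines are known to act were not found in any of them: the gamma-activated site TTCNNNGAA, held by 8.3% of 32851 mouse promoters, the interferon-stimulated element GAAANNGAA (8.56%) and the NF-kB element GGNNTTTCC (5.82%). The homeodomain core TAAT was found in 5 of the 8 genes and in 58% of all promoters, and the E box CANNTG in 7 of the 8 genes and in 72.3% of all promoters. The core of the cAMP response element, TGACG, was found in 4 of the 8 genes, *Nkx6-1*, *Isl1*, *Pax6* and *Foxa2*, and in 20.8% of all promoters. A gene with several promoters had more chances to hold a motif than a single promoter. The only *Rfx6* promoter had its start 7758 bases from that of the gene in the count table. A second *Pax6* promoter lay 13567 bases from the gene start, and further *Foxa2* promoters 1021 and 1505 bases. No E box shared bases with a TGACG match, but TGACG matches on opposite strands overlapped in *Pax6* and TAAT matches did in *Rfx6*. Printed below are the promoters of *Pdx1* (chr5:147269847-147270146, plus strand) and *Isl1* (chr13:116309639-116309938, minus strand), which had the largest falls in OE cells with and without cytokines, of *Pax6* (chr2:105668646-105668945, plus strand), and of *Neurod1* (chr2:79456587-79456886, minus strand), which moved the other way with cytokines. TGACG and its complement are in capitals.
Pdx1: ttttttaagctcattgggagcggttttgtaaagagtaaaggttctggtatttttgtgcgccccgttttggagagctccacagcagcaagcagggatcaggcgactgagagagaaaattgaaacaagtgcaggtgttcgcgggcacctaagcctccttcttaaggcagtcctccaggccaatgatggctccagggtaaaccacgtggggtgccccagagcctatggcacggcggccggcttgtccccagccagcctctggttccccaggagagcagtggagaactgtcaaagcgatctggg
Isl1: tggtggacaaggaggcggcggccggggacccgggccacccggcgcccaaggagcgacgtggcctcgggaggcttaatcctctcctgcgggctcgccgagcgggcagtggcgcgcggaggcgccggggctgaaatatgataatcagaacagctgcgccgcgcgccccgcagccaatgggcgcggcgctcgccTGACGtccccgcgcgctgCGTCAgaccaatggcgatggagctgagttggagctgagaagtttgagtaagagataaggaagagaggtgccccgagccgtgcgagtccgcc
Pax6: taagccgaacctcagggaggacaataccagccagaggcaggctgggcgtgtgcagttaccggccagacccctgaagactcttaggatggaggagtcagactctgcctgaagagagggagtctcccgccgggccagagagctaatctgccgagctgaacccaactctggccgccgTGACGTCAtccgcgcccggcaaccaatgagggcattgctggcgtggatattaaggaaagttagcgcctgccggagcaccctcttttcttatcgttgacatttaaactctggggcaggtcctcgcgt
Neurod1: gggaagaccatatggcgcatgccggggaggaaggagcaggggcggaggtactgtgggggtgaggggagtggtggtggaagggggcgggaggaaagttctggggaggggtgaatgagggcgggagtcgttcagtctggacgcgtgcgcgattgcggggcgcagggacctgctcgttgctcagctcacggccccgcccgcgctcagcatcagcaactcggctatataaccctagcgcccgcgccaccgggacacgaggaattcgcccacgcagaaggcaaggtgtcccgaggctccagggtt
*Isl1* and *Pax6* each show 2 such matches, which overlap as a palindrome in *Pax6*, while *Pdx1* and *Neurod1* show none. That these letters are absent from the window says nothing about the factors that bind them.

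The libraries held between 26657792 and 37168232 assigned reads, with a median of 30701023. *Irf1* and *Nfkbia*, which cytokines are known to induce, rose with treatment in every line, with log2 fold changes of 3.75 to 5.15 and 2.93 to 3.25. β cell markers were present throughout: 6 of 7 reached a mean of 1 CPM in Scr and all 7 did in OE, and their summed level was 16680 to 22660 CPM in Scr and 38520 to 42240 CPM in OE. Of the 4 duct cell markers, none reached 1 CPM in Scr (sum 0.279 to 0.594 CPM, with *Krt19* at 0) and 1 did in OE (13.1 to 18.2 CPM, with *Sox9* at 0). Both PP cell markers were at 0 in Scr, and their sum was 6.18 to 11.4 CPM in OE. The 4 fibroblast markers summed to 13.7 CPM in Scr replicate 1, 33.4 CPM in ZIP replicate 1 and 40.8 CPM in Scr+Cy replicate 1, against 0.537 to 7.77 CPM in the other libraries. Of the 5 measured alpha cell markers, 2 reached 1 CPM in Scr and 4 in OE, and the sum was 1528 to 1981 CPM in Scr, 3809 to 4760 CPM in ZIP and 602 to 1156 CPM in OE, most of it *Ttr*. The part of these cell markers in the results below was not tested, except that counts are also given without the libraries high in fibroblast markers. *Cel* was the only acinar marker measured and had at most 0.124 CPM in any library. Delta cell markers, 2 measured, summed to 2.93 to 4.8 CPM in Scr and 13 to 18 CPM in OE, the 3 leukocyte markers to 0.62 to 4.52 CPM in any library, and the endothelial marker *Pecam1* to at most 3.93 CPM.

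Between genes, levels were compared as CPM per kilobase of exon. In Scr cells *Mafa* (383 ± 46.6) and *Pdx1* (382 ± 16.7; SD, n = 4) stood at the top, and their libraries overlapped. *Nkx6-1* (80.9 ± 8.4), *Neurod1* (74.1 ± 2.67), *Nkx2-2* (69.1 ± 1.52) and *Isl1* (67.1 ± 2.91) formed a middle group in which each neighbour overlapped the next. Below them came *Foxa2* (49.2 ± 3.73), *Pax6* (40.6 ± 3.19) and *Rfx6* (2.47 ± 0.0863), none overlapping its neighbour. *Rfx6* was thus the lowest of the 9 by a wide gap, and it was the lowest in every other group as well. Its level per kilobase was 17.8 ± 2.18 in OE+Cy, where *Pax6*, the next above it, was at 21 ± 0.678 and overlapped it. *Pdx1* had the highest mean in each of the other 5 groups, overlapping *Mafa* in OE and OE+Cy. The order of the factors between *Mafa* and *Pdx1* at the top and *Rfx6* at the bottom depended on the length used. Divided by the longest transcript and not by the union of all exons, *Pax6* was at 107 ± 8.43 in Scr and ranked the third. Its exon union spans 11694 bases against 4427 for the longest transcript. By the longest transcript *Isl1* (106 ± 4.58) and *Nkx2-2* (93.7 ± 2.06), which then did not overlap, stood above *Nkx6-1* and *Neurod1* in Scr. With that length *Rfx6* did not overlap its neighbour *Foxa2* in OE+Cy.

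**Figure D1:**
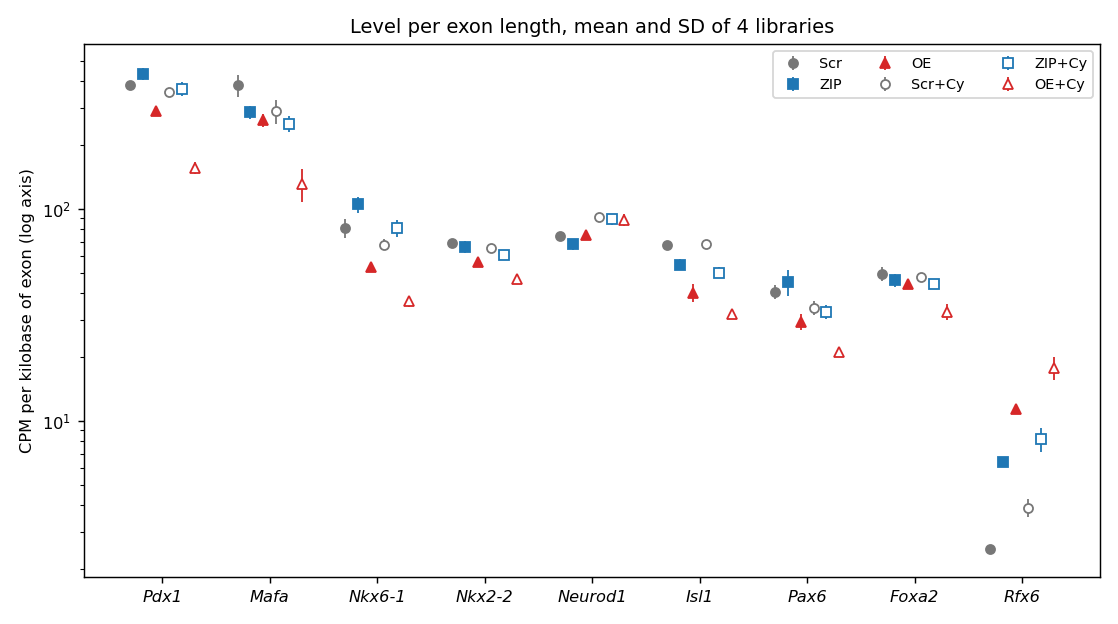
Level of each factor per kilobase of exon (vertical log axis, CPM per kilobase of the exon union) in the 6 groups. Symbols are means and bars SD of 4 libraries, open symbols are cytokine-treated groups. *Pdx1* and *Mafa* lie at the top in every group, and *Rfx6* lies at the bottom, at 2.47 in Scr and 17.8 in OE+Cy.

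How the factors differed between the miR-146a-5p overexpressing line and the control line was asked first. In untreated OE cells *Pdx1*, *Mafa*, *Nkx6-1*, *Nkx2-2*, *Isl1* and *Pax6* were lower than in Scr, to between 59.7% and 81.4% of the control level, and *Rfx6* was 4.6-fold higher. *Neurod1* and *Foxa2* did not pass the test. So 6 of the 9 factors fell and 1 rose (edgeR quasi-likelihood test, Benjamini-Hochberg adjusted p under 0.05), where 25.6% of all genes fell and 24.5% rose. With a cutoff of 1.5-fold in either direction and an unadjusted p under 0.05, called the fold cutoff below, 3 of the 9 passed (*Nkx6-1*, *Isl1* and *Rfx6*), against 25.7% of all genes. The median log2 fold change of the 9 was −0.39 and that of all genes 0.

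*Isl1*, the LIM-homeodomain factor, showed the largest fall. Its level was 261.3, 260.6, 282.9 and 258.0 CPM in the Scr libraries and 155.1, 141.3, 159.7 and 178.2 CPM in the OE libraries. The groups did not overlap, and the log2 fold change was −0.74 (SE 0.0629, adjusted p = 4.93e-10). *Nkx6-1* stood at 292.9, 240.2, 236.1 and 246.3 CPM in Scr and at 168.2, 168, 168.4 and 163.9 CPM in OE. All OE libraries were below all Scr libraries, among which replicate 1 was the highest (log2 fold change −0.60, SE 0.0743, adjusted p = 2.73e-07). *Mafa* stood at 1242, 993.8, 984.8 and 981.2 CPM in Scr and at 643, 717.4, 749.3 and 753.8 CPM in OE. Here too Scr replicate 1 lay above the rest of its group, and the lowest Scr library was above the highest OE library (−0.55, SE 0.111, adjusted p = 1.97e-04).

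*Pdx1* was at 852.8, 806.3, 855.3 and 781.9 CPM in Scr and at 590.2, 614.2, 672.1 and 630.6 CPM in OE. No OE library reached the lowest Scr library (log2 fold change −0.39, SE 0.0611, adjusted p = 7.65e-06). *Pax6* ranged from 427.2 to 515 CPM in Scr and from 303.4 to 371 CPM in OE (−0.47, SE 0.086, adjusted p = 6.22e-05), and *Nkx2-2* from 193.1 to 202.9 CPM and from 150.2 to 168.2 CPM (−0.30, SE 0.0513, adjusted p = 3.14e-05). Neither pair of groups overlapped. *Foxa2* was at 107.5 to 128.7 CPM in Scr and 102.4 to 109.7 CPM in OE, overlapping groups with a log2 fold change of −0.15 (95% interval −0.28 to −0.02, adjusted p = 0.0519). It passed without Scr replicate 2 (adjusted p = 0.0234) or OE replicate 4 (0.0456), and ranged from 0.0136 to 0.216 over all alternatives. *Neurod1* was at 202.2 ± 7.27 CPM in Scr and 205.8 ± 6.58 CPM in OE (SD, n = 4), and the interval of its log2 fold change was −0.09 to 0.14 (adjusted p = 0.742).

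*Rfx6* went the opposite way. Its level was 9.82, 10.03, 9.44 and 10.25 CPM in Scr and 47.57, 44.07, 47.48 and 42.9 CPM in OE. The lowest OE library was far above the highest Scr library, with a log2 fold change of 2.20 (SE 0.0926, adjusted p = 1.26e-15). Of the 7 other tested genes within 1 Mb of its start, 5 were higher in OE and none lower, and their median log2 fold change was 0.73. Around *Pdx1*, 7 of 18 such neighbours were higher and 2 lower (median 0.34), while *Pdx1* itself was lower. Neighbours of the other factors had medians between −0.15 (*Pax6*, 17 genes) and 0.23 (*Isl1*, 2 genes). The part of such neighbours in the values of the factors was not tested.

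**Figure D2:**
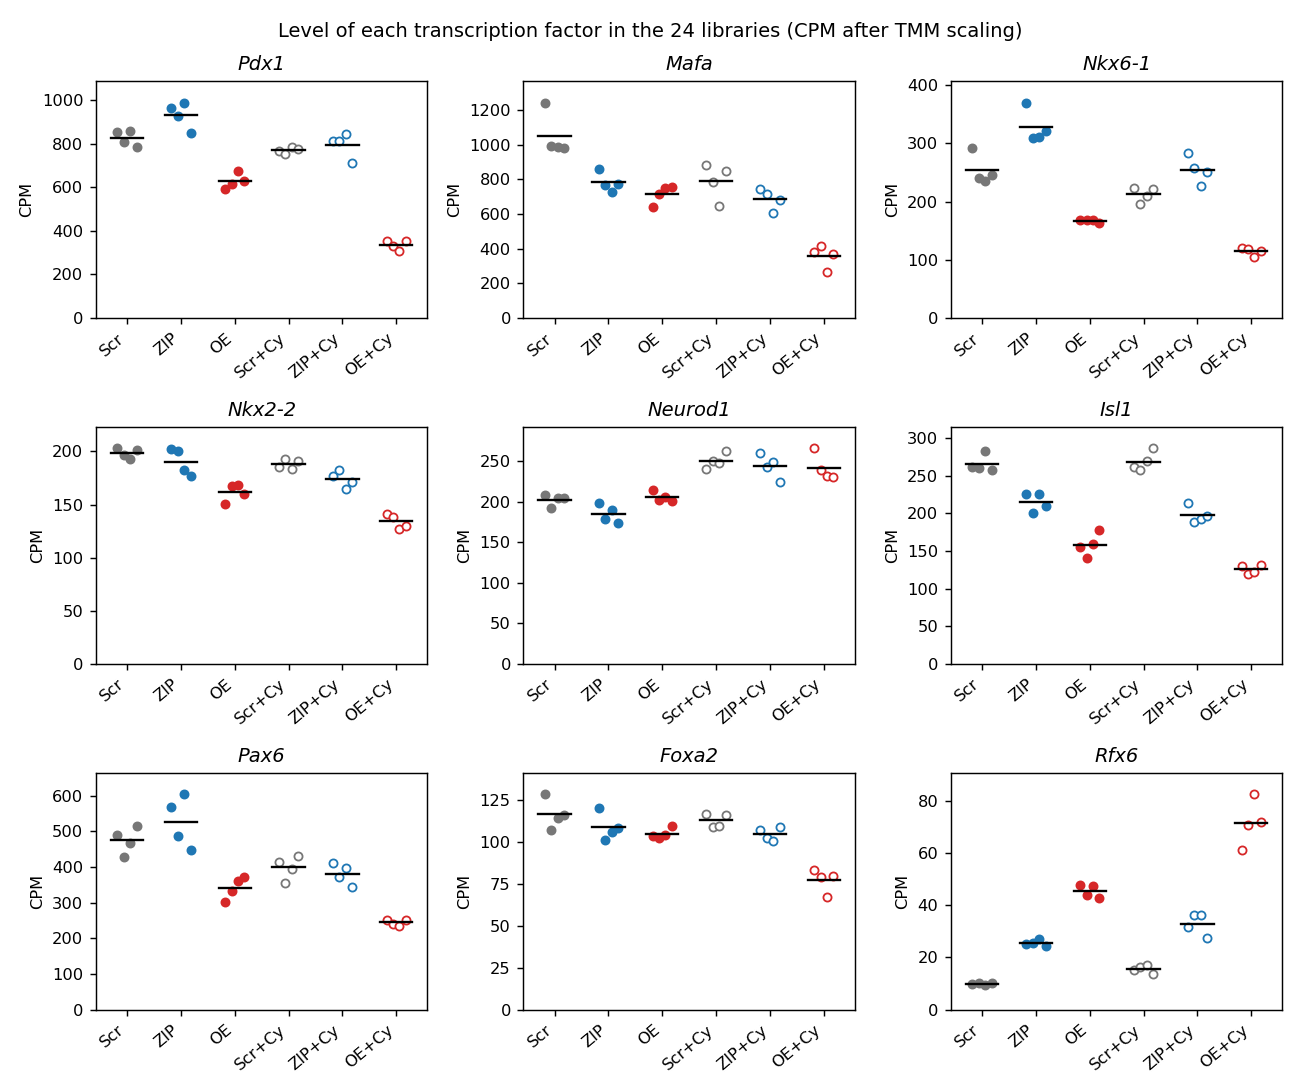
Level of each factor in every library (CPM after TMM scaling, vertical axis from 0), by group. Points are libraries, lines are group means, and open points are cytokine-treated cells. *Pdx1*, *Mafa*, *Nkx6-1*, *Isl1* and *Pax6* were lowest in OE+Cy, *Neurod1* was higher in each treated group than in its untreated line, and *Rfx6* was highest in OE+Cy, at 61.15 to 82.45 CPM.

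In the line with the miR-146a-5p inhibitor the same factors were split. In ZIP cells *Nkx6-1* rose to 129%, *Pdx1* to 113% and *Rfx6* to 259% of the Scr level, while *Mafa* fell to 74.5% and *Isl1* to 81.2%. So 3 of the 9 rose and 2 fell, where 13.5% of all genes rose and 14.8% fell. Of the 9, 1 passed the fold cutoff (*Rfx6*), as did 14.9% of all genes. The median log2 fold change was −0.06 for the 9 and 0 for all genes.

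*Nkx6-1* was at 370.2, 309.1, 311.4 and 321.4 CPM in the ZIP libraries. Each of these was above every Scr library (log2 fold change 0.37, SE 0.0739, adjusted p = 4.22e-04). *Rfx6* was at 25.21, 25.64, 26.96 and 24.49 CPM, again above all Scr libraries (1.37, SE 0.093, adjusted p = 4.20e-11), and 2 of its 7 neighbours within 1 Mb were higher (median 0.11). *Mafa* was at 859.9, 768, 729.5 and 770.8 CPM, below all Scr libraries (−0.43, SE 0.111, adjusted p = 0.00499). *Isl1* was at 226.5, 201.2, 225.5 and 209.8 CPM, also without overlap (−0.30, SE 0.0626, adjusted p = 6.50e-04). *Mafa* and *Isl1* were thus lower in both modified lines, and *Rfx6* higher in both, against the same Scr libraries.

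*Pdx1* was at 965.1, 925.6, 987.7 and 847.9 CPM in ZIP, and the last of these lay within the Scr range. Its log2 fold change of 0.18 (SE 0.061, adjusted p = 0.0316) did not pass when any of 5 of the 8 libraries was left out: Scr replicate 2 or 4 (adjusted p = 0.0745 and 0.0991) or ZIP replicate 1, 2 or 3 (0.0871, 0.058 and 0.0943), nor without the libraries high in fibroblast markers (0.0963). Over all alternatives its adjusted p ranged from 0.00996 to 0.0991. *Nkx2-2* (−0.06, interval −0.17 to 0.04), *Pax6* (0.15, −0.03 to 0.33) and *Foxa2* (−0.10, −0.23 to 0.03) did not pass, and each overlapped between the groups. *Neurod1* was at 191.6 to 208.2 CPM in Scr and 173.3 to 198.1 CPM in ZIP (−0.13, adjusted p = 0.0921). Blocked on the replicate numbers, which pair these libraries, it passed (adjusted p = 0.0446), the lowest value over its alternatives, of which the highest was 0.268.

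The cytokine response of the control line was measured to see how the factors behave under inflammatory stress. In Scr+Cy cells *Neurod1* and *Rfx6* rose to 124% and 157% of the untreated level, and *Mafa*, *Nkx6-1* and *Pax6* fell to 75.3%, 83.8% and 84% of it. Thus 2 of the 9 rose, where 10.5% of all genes did, and 3 fell, where 7.33% did. Only *Rfx6* passed the fold cutoff, as did 10.6% of all genes. The median log2 fold change was −0.08 for the 9 and 0.002 for all genes. The rises of *Neurod1* and *Rfx6* passed with every library left out in turn, but the falls did not. Replicate numbers paired these libraries, and *Mafa*, *Nkx6-1* and *Pax6* were each lower in Scr+Cy in all 4 numbered pairs, with adjusted p = 0.00173, 0.00143 and 0.0275 under that block.

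*Neurod1* was at 208.2, 191.6, 204.6 and 204.5 CPM in Scr and at 240.2, 250.5, 247.5 and 262.7 CPM in Scr+Cy. The treated libraries were all above the untreated ones (log2 fold change 0.31, SE 0.0552, adjusted p = 2.14e-04). *Rfx6* was at 15.15, 16.49, 16.99 and 13.67 CPM in Scr+Cy, each above every Scr library (0.65, SE 0.0943, adjusted p = 1.18e-05). *Mafa* was at 880.1, 786.5, 647.4 and 849.8 CPM in Scr+Cy, below the lowest Scr library (−0.41, SE 0.111, adjusted p = 0.0109). *Nkx6-1* was at 222.9, 195.6, 210.1 and 222.5 CPM, also without overlap (−0.25, SE 0.074, adjusted p = 0.0171), and *Pax6* at 356.8 to 430.6 CPM overlapped its Scr range (−0.25, SE 0.0858, adjusted p = 0.0445). The fits with a library left out did not use the block on replicate numbers. Without Scr replicate 1 none of these 3 falls passed in such a fit, and 2 of the 9 factors passed in place of 5. The log2 fold change was then −0.32 for *Mafa* (adjusted p = 0.058), −0.18 for *Nkx6-1* (0.0939) and −0.24 for *Pax6* (0.0982). *Mafa* also did not pass without Scr+Cy replicate 3 (0.0562), *Nkx6-1* without Scr+Cy replicate 2 (0.0716), and *Pax6* also without Scr replicate 3 (0.0836) or 4 (0.137) or Scr+Cy replicate 1 (0.0528), 2 (0.16) or 3 (0.0927). Over all alternatives the adjusted p ranged from 0.00173 to 0.058 for *Mafa*, 0.00143 to 0.0939 for *Nkx6-1* and 0.0179 to 0.16 for *Pax6*. Without the 3 libraries high in fibroblast markers, 3 of the 9 passed, *Nkx6-1* (0.0521) and *Pax6* (0.109) being lost. *Pdx1* (−0.10, 95% interval −0.23 to 0.02), *Nkx2-2* (−0.08, −0.18 to 0.03, without overlap), *Isl1* (0.02, −0.11 to 0.15) and *Foxa2* (−0.04, −0.18 to 0.09) did not pass.

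In the ZIP line cytokines again raised *Neurod1*, to 132%, and *Rfx6*, to 128%, and lowered *Pdx1*, *Nkx6-1* and *Pax6*, to 85.2%, 77.7% and 72.3% of the untreated ZIP level. This made 2 of the 9 higher and 3 lower, against 13.6% and 12.8% of all genes. None of the 9 passed the fold cutoff, which 12.5% of all genes did. *Neurod1* was at 198.1, 179.2, 190.2 and 173.3 CPM in ZIP and at 259.6, 242.7, 249.5 and 224.3 CPM in ZIP+Cy, without overlap (log2 fold change 0.40, SE 0.0553, adjusted p = 5.59e-06). *Pax6* was at 569.1, 487.8, 604.7 and 448.1 CPM in ZIP and at 410.4, 373.1, 398.8 and 343.2 CPM in ZIP+Cy (−0.47, SE 0.086, adjusted p = 2.01e-04). All treated libraries lay below all untreated ones. *Nkx6-1* was at 283.8, 258.3, 226.4 and 250.3 CPM in ZIP+Cy (−0.36, SE 0.074, adjusted p = 5.90e-04), *Pdx1* at 810.3, 812.5, 841.6 and 709.4 CPM (−0.23, SE 0.061, adjusted p = 0.00608) and *Rfx6* at 31.46, 36.12, 36.18 and 27.31 CPM (0.36, SE 0.0878, adjusted p = 0.00356), and none of these overlapped untreated ZIP. *Mafa* was at 686.3 ± 59.7 CPM against 782 ± 55.2 CPM (SD, n = 4; −0.19, 95% interval −0.42 to 0.04). *Nkx2-2* did not pass (−0.13, adjusted p = 0.0613), but did when blocked on the replicate numbers (adjusted p = 0.034), with DESeq2 (0.0277), with the filterByExpr filter on low counts (0.0448) and without ZIP replicate 3 (0.0446), ZIP replicate 4 (0.0224) or ZIP+Cy replicate 2 (0.0455). Its adjusted p ranged from 0.0224 to 0.223 over all alternatives. *Isl1* (−0.13, adjusted p = 0.153) and *Foxa2* (−0.05, adjusted p = 0.592) did not pass either.

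Cytokine-treated OE cells had the lowest levels of *Pdx1*, *Mafa*, *Nkx6-1*, *Nkx2-2*, *Isl1*, *Pax6* and *Foxa2* among the 6 groups. Treatment took *Mafa* to 50%, *Pdx1* to 53.8%, *Nkx6-1* to 68.8%, *Pax6* to 71.6% and *Foxa2* to 73.8% of the untreated OE level, with *Isl1* at 79.4% and *Nkx2-2* at 83.1%. *Neurod1* and *Rfx6* rose, to 117% and 157%. All 9 therefore passed, 7 falling and 2 rising, where 21.5% of all genes fell and 23% rose. The fold cutoff was passed by 3 of the 9 (*Pdx1*, *Mafa* and *Rfx6*) and by 21% of all genes. The median log2 fold change was −0.44 for the 9 and 0.024 for all genes.

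*Pdx1*, at 590.2 to 672.1 CPM in OE, fell to 353.9, 332.4, 306.9 and 354.8 CPM when cytokines were added (log2 fold change −0.90, SE 0.0616, adjusted p = 2.08e-11). *Mafa* stood at 378.2, 412.9, 268.3 and 371.8 CPM in OE+Cy (−1, SE 0.112, adjusted p = 9.52e-08). In both, the highest treated library was well below the lowest untreated one. *Foxa2*, the forkhead factor, was at 103.8, 102.4, 104.5 and 109.7 CPM in OE and at 83.7, 79.45, 67.36 and 79.59 CPM in OE+Cy (−0.44, SE 0.0638, adjusted p = 4.21e-06). *Nkx6-1* was at 119.9, 119.3, 105.3 and 115.5 CPM in OE+Cy (−0.54, SE 0.0746, adjusted p = 2.14e-06). *Isl1* was at 130.8, 119.2, 122.1 and 131.5 CPM (−0.33, SE 0.063, adjusted p = 1.22e-04). *Foxa2*, *Nkx6-1* and *Isl1* likewise did not overlap between OE and OE+Cy. *Pax6* ranged from 235.8 to 251.7 CPM (−0.48, SE 0.0862, adjusted p = 6.05e-05) and *Nkx2-2* from 127.4 to 141.3 CPM (−0.27, SE 0.0514, adjusted p = 1.51e-04). *Neurod1* was at 215, 201.8, 206 and 200.3 CPM in OE and at 265.7, 239.5, 231.5 and 230.4 CPM in OE+Cy (0.23, SE 0.0552, adjusted p = 0.00125). *Rfx6* was at 61.15, 70.48, 82.45 and 71.9 CPM in OE+Cy, its highest levels of any group (0.65, SE 0.0846, adjusted p = 8.66e-07). No factor overlapped between the OE and OE+Cy libraries, and the share of all genes without overlap is not given here. Of 11 tested genes within 1 Mb of *Foxa2*, 7 fell and 1 rose (median −0.41), while around *Mafa* 11 of 62 fell and 18 rose (0.08) and around *Pdx1* 4 of 18 fell and 4 rose (0.02). In the same libraries the summed β cell markers stood at 24680 to 32150 CPM in OE+Cy and the duct cell markers at 18.7 to 27.7 CPM, and the part of either in these changes was not tested.

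**Figure D3:**
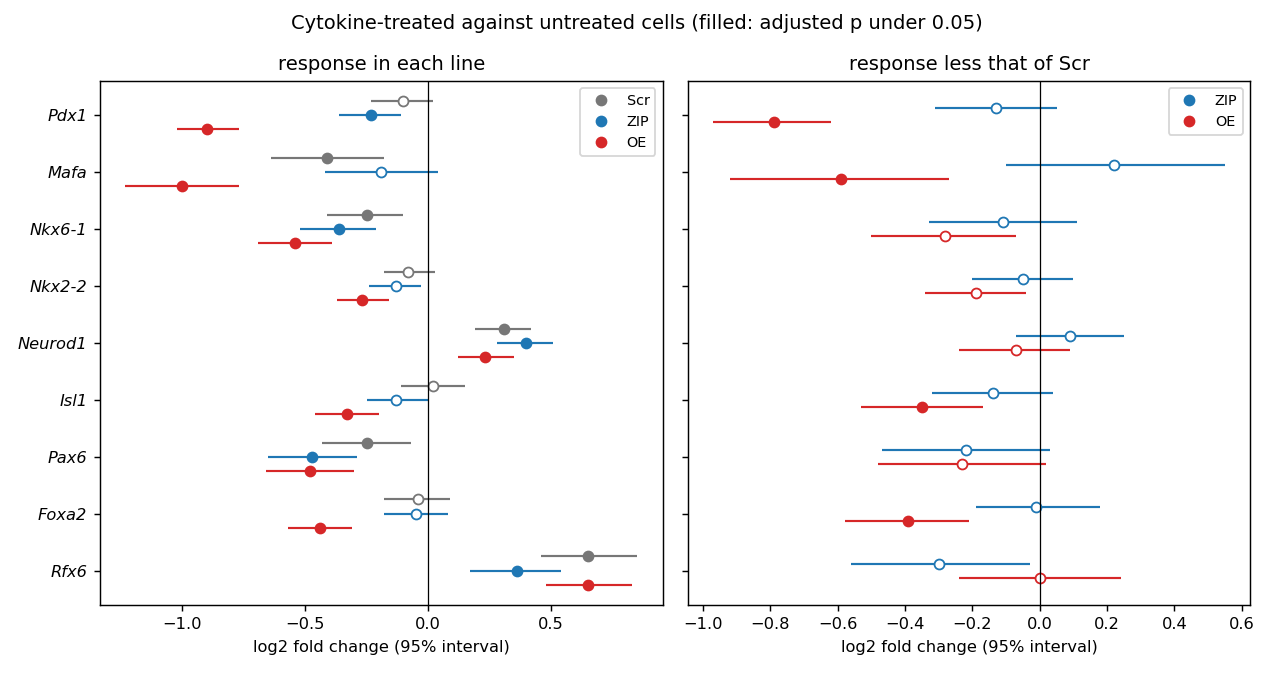
Log2 fold change of each factor with cytokines in the Scr, ZIP and OE lines (left) and the difference of the ZIP and OE responses from that of Scr (right). Points are edgeR estimates, bars 95% intervals, and filled points have an adjusted p under 0.05. *Neurod1* and *Rfx6* lie to the right of 0 in all lines, and *Pdx1*, *Mafa*, *Isl1* and *Foxa2* have OE responses below that of Scr.

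Whether the lines responded differently to cytokines was tested as an interaction. A response, here and below, is a log2 fold change with cytokines, so a lower response is a larger fall or a smaller rise. The response of OE cells was lower than that of Scr cells for *Pdx1* (difference of log2 fold changes −0.79, SE 0.0865, adjusted p = 1.82e-06), *Mafa* (−0.59, SE 0.157, adjusted p = 0.00919), *Foxa2* (−0.39, SE 0.0898, adjusted p = 0.00286) and *Isl1* (−0.35, SE 0.0887, adjusted p = 0.00677). These were 4 of the 9, with none higher, where 10.3% of all genes had a lower and 9.64% a higher response. *Pdx1*, *Isl1* and *Foxa2* had not passed the test of cytokines in Scr. The fold cutoff was passed by *Pdx1* and *Mafa*, 2 of the 9, and by 12.1% of all genes. *Nkx6-1* (−0.28, 95% interval −0.50 to −0.07, adjusted p = 0.0589), *Nkx2-2* (−0.19, −0.34 to −0.04, adjusted p = 0.0695) and *Pax6* (−0.23, −0.48 to 0.02, adjusted p = 0.197) did not pass. The block on the replicate numbers used terms shared by all groups, although those numbers did not pair OE with Scr or OE+Cy with Scr+Cy. *Nkx6-1* passed with that block (adjusted p = 0.00722), with DESeq2 (0.047) and with only the groups compared in the fit (0.0298). It also passed without Scr replicate 1 (0.0119), Scr+Cy replicate 2 (0.0398), OE+Cy replicate 1 (0.0492) or the libraries high in fibroblast markers (0.0135), within a range of 0.00722 to 0.119 over all alternatives. *Nkx2-2* passed with that block (0.0358), with only the groups compared (0.0369), and without OE replicate 1 (0.0343) or OE+Cy replicate 1 (0.0411), within a range of 0.0343 to 0.206. For the risers, the difference was −0.07 for *Neurod1* (−0.24 to 0.09) and 0.00 for *Rfx6* (−0.24 to 0.24).

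For the ZIP line no factor passed (0 of 9 by edgeR and 0 of 9 by DESeq2). One, *Rfx6*, had an unadjusted p under 0.05, with a difference of −0.30 (95% interval −0.56 to −0.03, adjusted p = 0.725). Of all genes, 0.0509% had a higher and 0.00565% a lower response in ZIP than in Scr, and 3.29% passed the fold cutoff. The widest interval among the factors was that of *Mafa* (−0.10 to 0.55).

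With cytokines present, the OE line was compared with the control line again. OE+Cy cells held 43.9% of the *Pdx1*, 45.2% of the *Mafa*, 46.9% of the *Isl1*, 54% of the *Nkx6-1*, 61.4% of the *Pax6*, 68.5% of the *Foxa2* and 71.4% of the *Nkx2-2* level of Scr+Cy cells, and 4.6-fold the *Rfx6* level. So 7 of the 9 were lower and 1 higher, against 27.4% and 26% of all genes, and 6 of the 9 passed the fold cutoff, against 28.5%. The median log2 fold change was −0.70 for the 9 and 0.008 for all genes. *Pdx1* was at 765.6, 750.3, 783.2 and 773.7 CPM in Scr+Cy, well above its 306.9 to 354.8 CPM in OE+Cy (−1.19, SE 0.0619, adjusted p = 7.48e-14). *Isl1* was at 261.3, 257.8, 269.2 and 286.5 CPM in Scr+Cy (−1.09, SE 0.0635, adjusted p = 5.60e-13). For *Mafa* the log2 fold change was −1.14 (SE 0.112, adjusted p = 6.47e-09) and for *Nkx6-1* −0.89 (SE 0.0749, adjusted p = 4.75e-10). None of the 8 factors that passed overlapped between the groups. These 8 were picked by the test on the same libraries. The share of all genes without overlap is again not given, so this cannot be set against other genes. *Neurod1* alone did not pass, at 241.8 ± 16.4 CPM in OE+Cy and 250.2 ± 9.38 CPM in Scr+Cy (SD, n = 4; 95% interval of the log2 fold change −0.16 to 0.06).

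In ZIP+Cy cells, compared with Scr+Cy cells, *Nkx6-1* (120%) and *Rfx6* (210%) were higher and *Isl1* (73.6%) was lower, while the other 6 did not pass. These 2 rises and 1 fall compare with 12.9% and 15.1% of all genes, and 1 of the 9 (*Rfx6*) passed the fold cutoff, as did 15.8% of all genes. *Isl1* was at 214.1, 188.5, 192.5 and 196.3 CPM in ZIP+Cy, below every Scr+Cy library (log2 fold change −0.44, SE 0.0627, adjusted p = 6.14e-06). *Nkx6-1* was higher by 0.26 (SE 0.0741, adjusted p = 0.0102) and *Rfx6* by 1.07 (SE 0.0901, adjusted p = 1.58e-09), both without overlap. *Mafa*, lower in untreated ZIP cells, was at 605.2 to 742 CPM against 647.4 to 880.1 CPM (−0.20, 95% interval −0.43 to 0.02). *Pdx1* (0.05, −0.08 to 0.17), *Pax6* (−0.07, −0.24 to 0.11) and *Neurod1* (−0.04, −0.15 to 0.08) overlapped between the groups. *Nkx2-2* (−0.12, −0.22 to −0.01, adjusted p = 0.0989) and *Foxa2* (−0.11, −0.24 to 0.02, adjusted p = 0.227) did not pass, although each ZIP+Cy library lay below every Scr+Cy library.

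**Figure D4:**
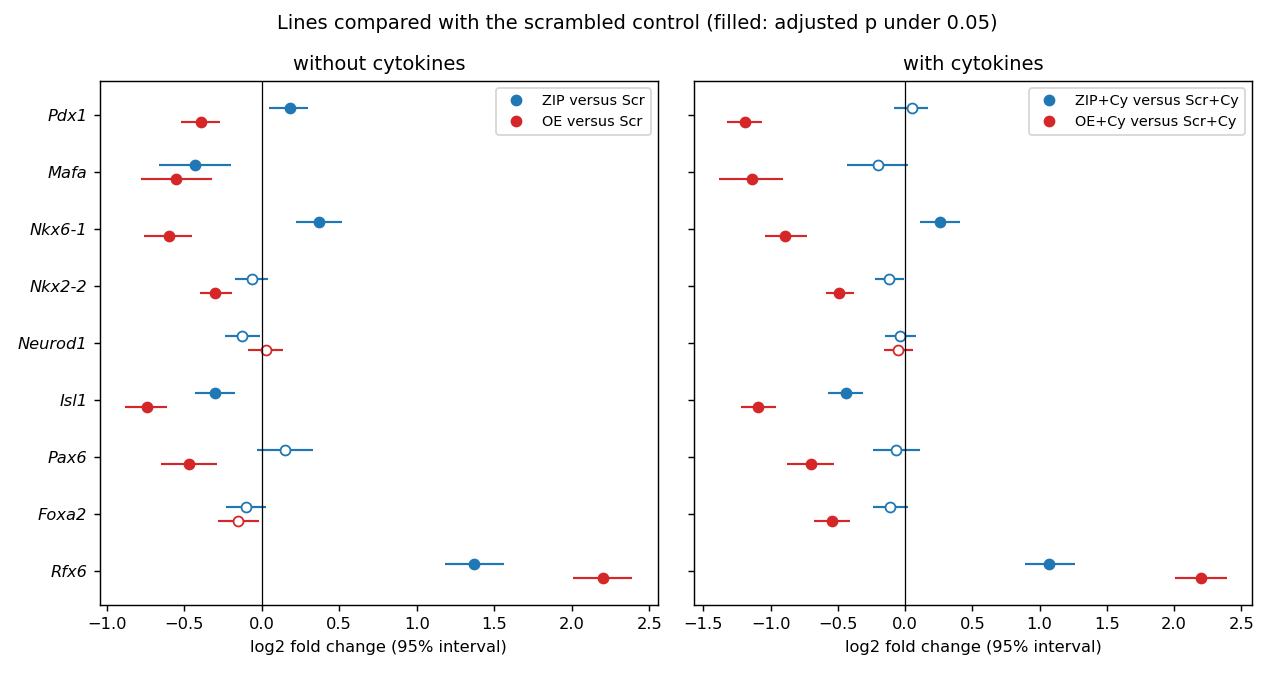
Log2 fold change of each factor in ZIP and OE against the Scr line, without cytokines (left) and with cytokines (right). Points are edgeR estimates, bars 95% intervals, and filled points have an adjusted p under 0.05. In OE, *Isl1* has the lowest value without cytokines (−0.74) and *Pdx1* the lowest with them (−1.19), while *Rfx6* is at 2.20 in both.

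Across the 24 libraries Pearson's r of log2 CPM ran from −0.95 to 0.95 over all 36 pairs of factors, with a median of 0.8. *Neurod1* and *Rfx6*, which changed differently above, were set aside, so a high r among the others follows in part from that choice. Over the 21 pairs of the others r was 0.75 to 0.95, with a median of 0.87. The libraries share lines and treatments, so this describes the groups more than the libraries. *Rfx6* ran against these others, down to −0.95 with *Isl1*. *Neurod1* had r between −0.49 and 0.20 with every other factor. Within groups r was −0.62 to 0.79 over all 36 pairs, with a median of 0.34. There the median r of *Neurod1* with the other factors was 0.4. The genes most alike to each factor over the 24 libraries, among 12670 genes with a mean of at least 1 CPM, were *Gng12* (0.972) and *Prmt8* (0.972) for *Pdx1*, *Tigar* (0.955) and *Foxa2* (0.954) for *Mafa*, and *Slc29a4* (0.991) and *Smarcc2* (0.984) for *Nkx6-1*. For *Nkx2-2* they were *Desi1* (0.961) and *Rassf8* (0.96), for *Isl1* *Cbln1* (0.963) and *Chst10* (0.962), for *Pax6* *Mapt* (0.975), and for *Foxa2* *Mafa* (0.954) and *E2f1* (0.953). For *Rfx6* they were *Limd1* (0.984) and *Mtmr11* (0.984), and for *Neurod1*, with the lowest values, *Dera* (0.917) and *Sema3e* (0.901). Of the 18 genes so chosen, 3 (*Gng12*, *Slc29a4* and *Limd1*) were also made over the 6 group means.

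Some reads near the factors could belong to other genes, since the use of strand in counting is not given in the sources used here. *Plut*, antisense to *Pdx1* (chr5:147270097-147275848) over 1425 bases, had a mean of 4.93 CPM and did not pass in OE (log2 fold change −0.04, adjusted p = 0.815) or OE+Cy against Scr+Cy (−0.24, adjusted p = 0.109), where *Pdx1* fell, but fell with *Pdx1* in ZIP+Cy against ZIP (−0.52, adjusted p = 0.00296). *Pax6* (chr2:105668896-105698410) shares 1091 bases with *Elp4* and 1435 bases with *Pax6os1*, both on the opposite strand. *Elp4* (mean 45.3 CPM) fell in OE with *Pax6* (−0.35, adjusted p = 1.15e-04), and *Pax6os1* (8.06 CPM) fell in OE (−0.62, adjusted p = 6.50e-04) but rose in OE+Cy against OE (0.48, adjusted p = 0.00695), where *Pax6* fell. *Nkx2-2os*, which overlaps *Nkx2-2* (chr2:147177546-147186402), had a mean of 0.134 CPM. *Gm26755*, annotated by GENCODE across *Neurod1* (chr2:79452639-79456636), was not among the tested genes. The other members lie at chr15:75745501-75748321 (*Mafa*), chr5:101659197-101664711 (*Nkx6-1*), chr13:116298270-116309688 (*Isl1*), chr2:148042877-148046969 (*Foxa2*) and chr10:51677760-51730429 (*Rfx6*) on mm10.

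Genes known as targets of these factors in β cells were examined from a list, of which 32 were measured. In OE cells 16 of the 32 rose and 9 fell (median log2 fold change 0.22), where 24.5% of all genes rose and 25.6% fell. Named by the smallest adjusted p, the risers in OE were *Ins1*, 1 of the 2 mouse insulin genes (7673 against 674.2 CPM, log2 fold change 3.51, SE 0.15), *Ucn3*, the peptide urocortin 3 that marks mature β cells (19.6 against 0.197 CPM, 6.60, SE 0.286), and *Iapp*, the hormone amylin (11430 against 3833 CPM, 1.58, SE 0.0735). *Ins2*, the other insulin gene and a marker of the β cell list, rose as well (0.79, SE 0.11, adjusted p = 1.76e-06). In ZIP cells 13 of the 32 rose and 2 fell (median 0.26), where 13.5% of all genes rose and 14.8% fell, among them *Pcsk2*, a prohormone convertase (1.32, SE 0.0799, adjusted p = 5.44e-12), and *Ero1b*, an oxidase of the endoplasmic reticulum (0.73, SE 0.0651, adjusted p = 4.10e-09).

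With cytokines, 19 of the 32 fell and 5 rose in OE+Cy against OE (median −0.43), where 21.5% of all genes fell and 23% rose. In ZIP+Cy against ZIP 9 fell and 3 rose (−0.09), where 12.8% of all genes fell and 13.6% rose, and in Scr+Cy against Scr 6 fell and 3 rose (−0.02), where 7.33% fell and 10.5% rose. *Ucn3* (−1.84, SE 0.198, adjusted p = 5.09e-08) and *Cltrn*, the renal-type amino acid transporter partner collectrin (−1.11, SE 0.129, adjusted p = 1.64e-07), fell in OE+Cy, and *Rgs4*, a regulator of G protein signaling, rose there (1.56, SE 0.121, adjusted p = 1.98e-10) and in ZIP+Cy (1.09, SE 0.119). As an interaction, 13 of the 32 had a lower and 3 a higher cytokine response in OE than in Scr (median −0.41), where 10.3% of all genes had a lower and 9.64% a higher one, among them *Prlr*, the prolactin receptor (−1.82, SE 0.31, adjusted p = 2.16e-04), and *Rgs4* (1.10, SE 0.168, adjusted p = 8.00e-05). In OE+Cy against Scr+Cy 14 of the 32 were higher and 15 lower (median 0.03), where 26% of all genes were higher and 27.4% lower, *Ins1* still being higher (2.80, SE 0.145) and *Ero1b* lower (−1.03, SE 0.0655). In ZIP+Cy against Scr+Cy 14 were higher and 2 lower (median 0.24), where 12.9% of all genes were higher and 15.1% lower, with *Slc30a8*, the zinc transporter of insulin granules, higher by 2.73 (SE 0.257, adjusted p = 1.09e-08).

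**Figure D5:**
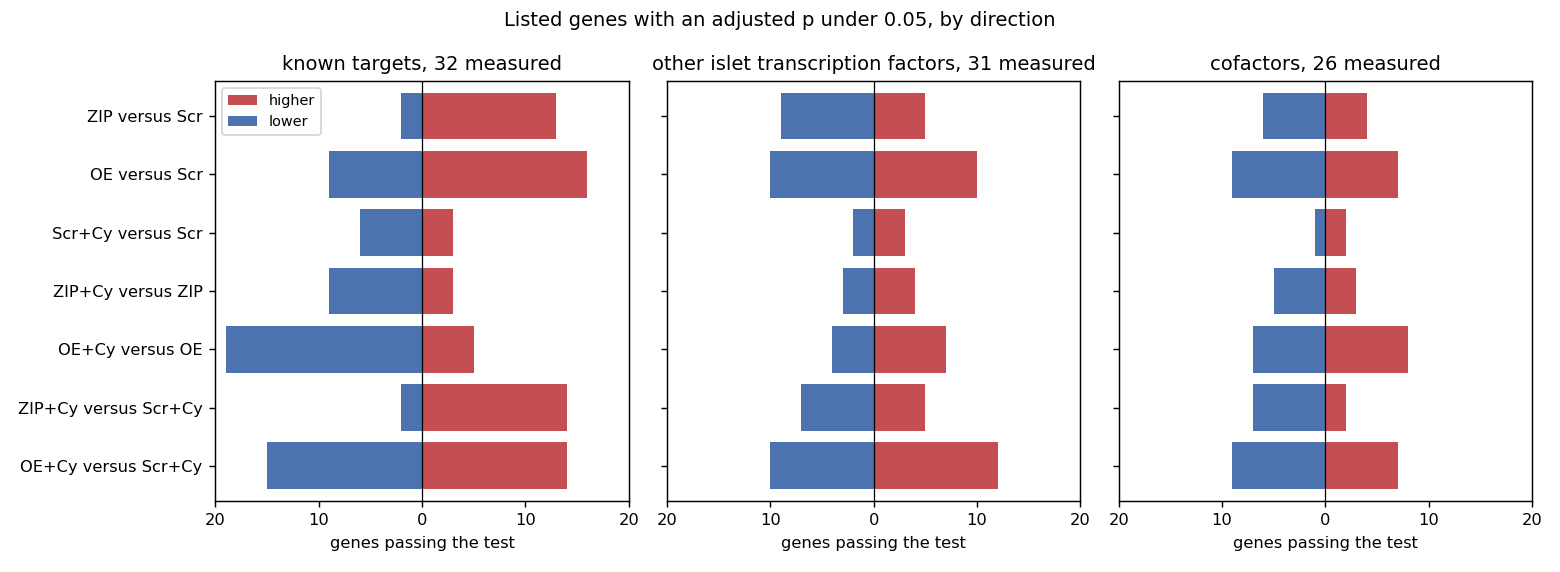
Number of listed genes with an adjusted p under 0.05 that were higher (right, red) or lower (left, blue) in each comparison, for known targets of the factors (32 measured), other islet transcription factors (31) and cofactors (26). The targets had 16 higher and 9 lower in OE against Scr, and 5 higher and 19 lower in OE+Cy against OE.

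Other islet transcription factors, 31 measured of 36 listed, were split. In OE against Scr 10 of the 31 rose and 10 fell (median log2 fold change 0.05), where 24.5% of all genes rose and 25.6% fell. *Nkx6-2*, a paralog of *Nkx6-1*, fell from 19.9 to 0.512 CPM (−5.27, SE 0.186, adjusted p = 5.82e-17), while *Sox4*, a factor of endocrine development, rose from 29.8 to 99.5 CPM (1.74, SE 0.118, adjusted p = 9.56e-12). In ZIP against Scr 5 rose and 9 fell (−0.05), against 13.5% and 14.8% of all genes. The falls included *Glis3* (−0.61, SE 0.0702, adjusted p = 2.53e-07) and *St18* (−0.53, SE 0.0783, adjusted p = 1.13e-05). *Rest*, a repressor of neuronal genes with a low level here, fell from 1.24 to 0.316 CPM (−1.96, SE 0.264, adjusted p = 2.89e-06). Cytokines raised *Hnf4g*, a nuclear receptor, in Scr (0.61), ZIP (0.51) and OE (1.09), and lowered *Tshz1* in the same lines (−0.31, −0.41 and −0.57). The counts were 3 higher and 2 lower in Scr+Cy against Scr (median 0.07; 10.5% and 7.33% of all genes), 4 and 3 in ZIP+Cy against ZIP (0.07; 13.6% and 12.8%), and 7 and 4 in OE+Cy against OE (0.14; 23% and 21.5%). *Glis3* (−0.46, SE 0.0981, adjusted p = 0.00162) and *Etv1* (−0.75, SE 0.206, adjusted p = 0.0112) had a lower cytokine response in OE than in Scr and *Hnf4g* a higher one (0.48, SE 0.152, adjusted p = 0.0267), out of 2 lower and 2 higher in all, against 10.3% and 9.64% of all genes. Between treated lines, 12 were higher and 10 lower in OE+Cy (0.01; 26% and 27.4% of all genes) and 5 were higher and 7 lower in ZIP+Cy (−0.11; 12.9% and 15.1%).

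All 26 listed cofactors of the factors were measured. In OE against Scr 7 of the 26 rose and 9 fell (median −0.04), where 24.5% of all genes rose and 25.6% fell, among them *Tcf4*, an E protein that pairs with Neurod1 (−0.67, SE 0.0555, adjusted p = 3.44e-10), *Ldb1*, the partner of Isl1 (−0.52, SE 0.0625, adjusted p = 2.18e-07), and *Ssbp2*, which stabilizes Ldb1 complexes (0.80, SE 0.123, adjusted p = 7.28e-06). In ZIP against Scr 4 rose and 6 fell (0), against 13.5% and 14.8% of all genes, with *Tle4*, a corepressor of the Groucho family, down from 12.3 to 3.13 CPM (−1.97, SE 0.0889, adjusted p = 3.43e-14) and *Setd7*, a methyltransferase that works with Pdx1, up from 92.2 to 154.9 CPM (0.75, SE 0.0974, adjusted p = 1.68e-06). With cytokines 2 rose and 1 fell in Scr (0.02; 10.5% and 7.33% of all genes), 3 rose and 5 fell in ZIP (−0.04; 13.6% and 12.8%), and 8 rose and 7 fell in OE (0.04; 23% and 21.5%). In OE+Cy against OE *Tle1*, another corepressor (−0.53, SE 0.0804, adjusted p = 7.63e-06), and *Meis2*, a homeodomain partner (−0.41, SE 0.0674, adjusted p = 1.89e-05), fell and *Crebbp*, an acetyltransferase, rose (0.27, SE 0.0521, adjusted p = 1.28e-04). These 3 were also the cofactors whose response differed between OE and Scr, at −0.59, −0.32 and 0.30, where 10.3% of all genes had a lower and 9.64% a higher response. Between treated lines 7 were higher and 9 lower in OE+Cy (−0.03; 26% and 27.4% of all genes), and 2 were higher and 7 lower in ZIP+Cy (−0.07; 12.9% and 15.1%), including *Ldb1* (−0.51, SE 0.0629, adjusted p = 6.75e-07).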

How the data were processed

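The 24 bulk RNA-seq libraries of MIN6 cells, 6 groups of 4, were grouped by their labels. According to the methods, the authors aligned reads to mm10 with STAR and assigned them to RefSeq transcripts in Partek Flow; the submitters' processing notes name STAR 2.7.8a and Partek 11.0.24.0204, another version of each than the methods give. The use of strand is not given in the sources used here. The authors deposited estimated counts per gene, of which 30.3% were not whole, and a normalized signal (those counts divided by a factor per library), used only in an alternative.

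Counts were rounded, and all 17696 genes entered a model of 6 group means in edgeR 4.0.16 (R 4.3.3) with TMM scaling, glmQLFit and glmQLFTest, which had been tested on simulated data. A gene passed at a Benjamini-Hochberg adjusted p under 0.05 over all genes of a comparison. Levels are CPM after TMM scaling, per kilobase of exon where genes are compared. The SE is the log2 fold change divided by the square root of F. Depth was 26657792 to 37168232 reads per library, so the factors rest on at least 302 reads in each.

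Replicate numbers were taken to pair libraries where every same-numbered pair had a correlation of deviations over 0.1 (12670 genes, 0.141 to 0.634 over all comparisons but those named next). This was not so for OE and Scr (−0.129 to 0.295) or OE+Cy and Scr+Cy (0.001 to 0.165). Where the replicate number was used as a block, its terms were shared by all groups.

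The members and lists were chosen with earlier results of these data known. Named were the 9 members, the 2 genes most alike to each, up to 3 passing genes per list and comparison by smallest adjusted p (mean 1 CPM or more in a group), overlapping genes, *Irf1*, *Nfkbia* and markers. Some genes chosen by these rules are not reported here. Alternatives were the Wald test of DESeq2 1.42.0, its size factors in edgeR, filterByExpr, only the groups compared, the replicate block, limma 3.58.1 on log2 of the deposited signal plus 1, a fold threshold of 1.5, and each library left out. Leaving out the libraries high in fibroblast markers was added after seeing the data.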

Additional observations from a re-analysis of the deposited data

Results flagged for a closer look

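Among the 54 combinations of a factor and a group, 3 had a library set apart from the other 3 by Dixon's criterion for 4 values, and chance alone would set apart about 1 in 20. *Mafa* in Scr replicate 1 was at 1242 CPM, with the next library at 993.8 CPM. *Isl1* in Scr replicate 3 was at 282.9 CPM, with the next at 261.3 CPM. *Nkx6-1* in OE replicate 4 was at 163.9 CPM, with the next at 168 CPM, a group whose SD was only 2.17 CPM. Scr replicate 1 also held the highest *Nkx6-1* (292.9 CPM) and *Foxa2* (128.7 CPM) levels of its group.

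The cytokine response of OE cells differed from that of Scr cells for 4 factors by the test of the interaction, by −0.79 on the log2 scale for *Pdx1*, −0.59 for *Mafa*, −0.35 for *Isl1* and −0.39 for *Foxa2*. Each log2 fold change with cytokines was lower in OE, where all 4 factors fell.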

How the results depend on the processing

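Of the values of single factors under the alternatives, 1298 kept their direction and their side of the threshold, 21 came to pass, 18 no longer passed and 22 changed sign; the cause was not tested. All sign changes were of values near 0 that did not pass: the OE interaction of *Rfx6* (0.01 with DESeq2's size factors, DESeq2 and limma, 0 with filterByExpr, and −0.10 to 0.07 with a library left out), the ZIP interaction of *Foxa2* (0.01 with only the groups compared and without the libraries high in fibroblast markers, −0.06 to 0.05 with a library left out), *Foxa2* (−0.08 to 0.01) and *Isl1* (−0.02 to 0.06) in Scr+Cy against Scr, and *Neurod1* in ZIP+Cy against Scr+Cy (−0.06 to 0).

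With the fold cutoff of 1.5 and an unadjusted p under 0.05, the number of factors passing was 1 in place of 5 in ZIP against Scr, 3 in place of 7 in OE against Scr, 1 in place of 5 in Scr+Cy against Scr, 0 in place of 5 in ZIP+Cy against ZIP, 3 in place of 9 in OE+Cy against OE, 1 in place of 3 in ZIP+Cy against Scr+Cy, and 2 in place of 4 in the OE interaction. With a library left out it ranged from 2 to 5 in Scr+Cy against Scr, and it was 3 there without the 3 libraries high in fibroblast markers. In the other comparisons it stayed within 1.5 times the count given. With the replicate number as a block, OE and Scr libraries, which were not paired by number, gave a further call for *Foxa2* (−0.15, adjusted p = 0.0136, range over alternatives 0.0136 to 0.216). The block changed no other call of a factor than this and the 4 given in the report. *Rfx6*, with 302 to 2611 reads per library, is the factor whose levels rest on the fewest reads.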
